A study of Mus musculus with 11 samples.

Results

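The 10 genes described here belong to insulin-like growth factor (IGF) and insulin signaling: the 3 receptor genes Igf1r, Igf2r and Insr, the 2 receptor substrate genes Irs1 and Irs2, and the 5 binding protein genes Igfbp2, Igfbp3, Igfbp4, Igfbp5 and Igfbp7. They were taken from a list of names and matched by symbol to the Ensembl identifiers of the count data. All 10 were found among 55359 genes. RNA came from cells sorted as CD31-positive and CD45-negative from the retinas of C57BL/6 mice (C57BL/6J in the study's methods) in the oxygen-induced retinopathy (OIR) model, in which pups are kept in high oxygen and pathological vessels grow after their return to room air. At postnatal day (P) 12, 5 mice received an intravitreal injection of 0.5 µL oncostatin M (OSM), an interleukin 6 family cytokine, at 100 ng/µL, and 6 mice received PBS. Cells were collected at P17, both retinas of a mouse were pooled into 1 sample, and all mice of both groups went through OIR. The mice came from 3 litters of 4, 4 and 3 animals, each litter was 1 OIR run, and litters 1 and 2 held 2 mice of each treatment while litter 3 held 1 OSM and 2 PBS mice. The study's methods mention PBS in contralateral eyes, and whether the 2 eyes of a sequenced mouse were treated alike is not given there.

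IGF1, IGF2 and insulin act through 2 related receptor tyrosine kinases, encoded by Igf1r and Insr, which phosphorylate the adaptor proteins IRS1 and IRS2 and thereby activate PI3K and Akt. The product of Igf2r carries IGF2 and proteins tagged with mannose 6-phosphate to lysosomes and has no kinase. Secreted binding proteins hold IGFs in the circulation and in the matrix, and IGF1 is known as a factor that retinal vessels need during development and in OIR.

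The libraries held 26697990 to 56033479 counted reads. The label of endothelial cells was matched by its markers: 13 of 13 endothelial genes had enough reads for testing, their summed level was 17320 to 23400 CPM per mouse (counts scaled to library size), and Cldn5 was the highest of them per length. Markers of other cells were also present, with sums of 430.5 to 2286 CPM for 13 mural cell genes, 219.1 to 5625 CPM for 10 rod genes, 210.1 to 508.3 CPM for 9 Müller glia genes, and 0.287 to 14.7 CPM for 8 leukocyte and microglia genes. Most of the Müller glia sum came from 1 gene, Glul, with a mean of 237.5 CPM (158.6 to 279.3). Of the 9 genes in that list, 7 had enough reads for testing and 1 had no reads in any mouse. The sum of 7 erythroid and platelet genes was 359.6 to 1132 CPM in OSM mice and 123.4 to 598.4 CPM in PBS mice, and in each of the 3 litters every OSM mouse lay above its PBS littermates. This difference was not tested, and it was seen among 11 marker lists in litters of few mice. The mural sum had a median of 636.8 CPM in OSM mice (highest 1167) and 1220 CPM in PBS mice (highest 2286). OSM mice lay below their PBS littermates in litters 1 and 3 and between them in litter 2. For 6 fibroblast genes the median sums were 120.5 CPM in OSM mice and 199.6 CPM in PBS mice, with overlapping ranges. The part of these sums in the levels given here was not tested. In such bulk samples, fewer cells of a type and less RNA per cell cannot be told apart.

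Per length of transcript, the members spanned a wide range, and binding protein genes were at its upper end. Igfbp7 had 917.5 ± 58.4 RPKM (reads scaled for exon length and library size; SD, n = 11 mice), a higher level than 99.9% of the 17050 genes tested. Igfbp3 followed with 297 ± 95.7 RPKM (SD, n = 11), and Igfbp4 with 141 ± 20.3 RPKM (SD, n = 11). The insulin receptor gene Insr, at 11.1 ± 2.15 RPKM (SD, n = 11), was the highest of the receptors, above Igf2r with 6.29 ± 1.46 and Igf1r with 1.97 ± 0.672 RPKM (SD, n = 11 each). Igfbp5 had 1.68 ± 1.53 RPKM, Igfbp2 0.598 ± 0.540 RPKM and Irs2 0.265 ± 0.251 RPKM (SD, n = 11 each), and Irs1 was nearly undetected. The order from Igfbp7 through Igfbp3, Igfbp4, Insr and Igf2r to Igf1r held in 11 of 11 mice at each of its steps. Below Igf1r the neighbours were not separated beyond their spread, since Igf1r was above Igfbp5 in 8 of 11 mice, Igfbp5 above Igfbp2 in 9 of 11, and Igfbp2 above Irs2 in 8 of 11.

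**Figure D1:**
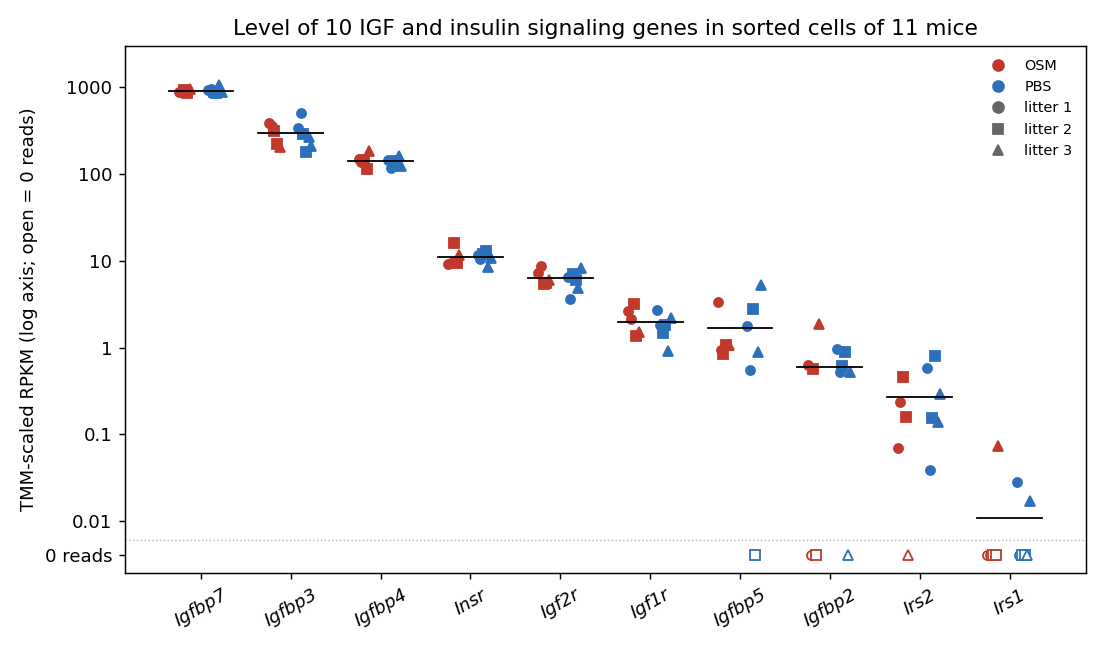
Level of the 10 members in each of 11 mice in TMM-scaled RPKM on a log axis, with OSM mice in red, PBS mice in blue, litters as marker shapes and black lines at the means. Igfbp7 lies in a narrow band near its mean of 917.5 RPKM, the points of both treatments overlap for every member, and open symbols at the bottom mark mice without a read of Igfbp5, Igfbp2, Irs2 or Irs1.

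No change after OSM passed the test for any member tested, and Irs1 had too few reads to be tested. In the edgeR quasi-likelihood test with litter as a term, 0 of the 9 members tested were called at an adjusted p under 0.05, as were 0 of all 17050 genes (0.0%). At an unadjusted p under 0.05 there were 0 of 9 members and 846 genes (4.96%). Without the filter on low counts edgeR called 65 genes (0.225%). DESeq2, which applies its own filter on mean counts, called 168 (0.581%). In both cases 0 members were among them, and percentages for these 2 settings are of 28940 genes here and below. OSM and PBS mice overlapped for 10 of 10 members, whereas they did not overlap for 69 of the genes tested (0.405%). The size of change that the data leave room for differed widely between the members and is given with each of them below, as the 95% interval of the log2 fold change (OSM minus PBS). Because edgeR, DESeq2 and all alternatives drew on the same 11 mice, these tests are not independent of one another.

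**Figure D2:**
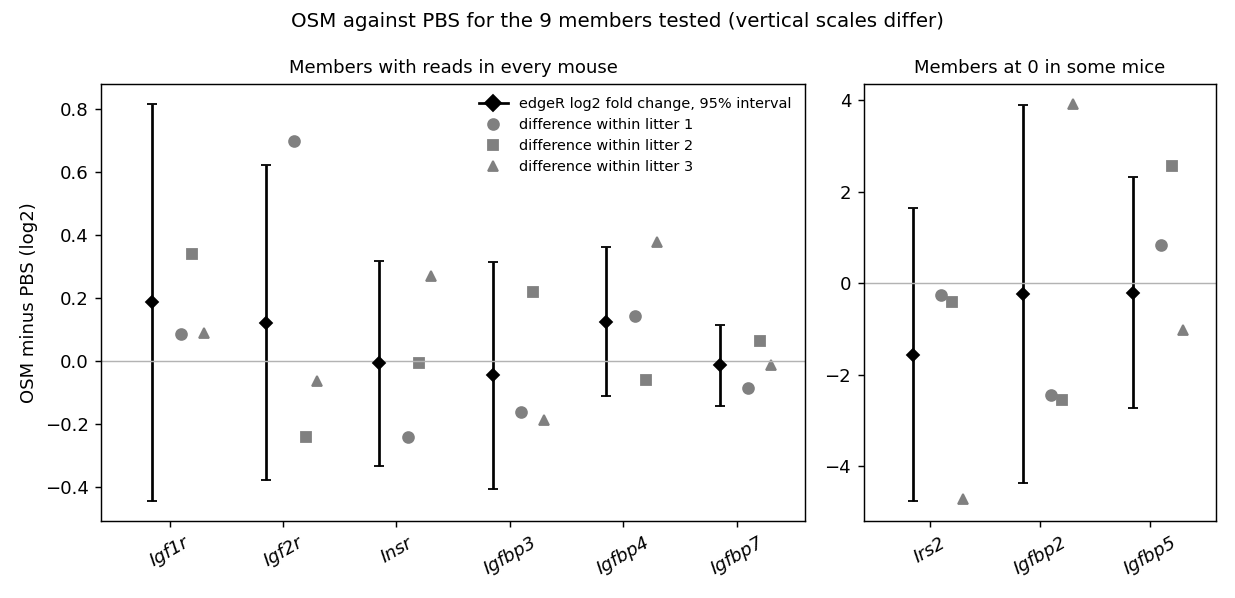
Difference between OSM and PBS on the log2 scale for the 9 members tested, as the edgeR log2 fold change with its 95% interval (black) and as the difference of mean log2 CPM within each litter (grey shapes). Every interval includes 0, the interval of Igfbp7 is the narrowest, from -0.14 to 0.12, and the right panel, with its wider scale, holds the 3 members that had no read in some mice.

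Among the receptors, Igf1r (ENSMUSG00000005533, GRCm39 chr7:67601518-67883416, plus strand) encodes the kinase that binds IGF1 and IGF2. Its level was 52.0, 41.7, 62.7, 26.9 and 29.7 CPM in OSM mice 1, 2, 5, 6 and 9. In PBS mice it was 17.9 to 53.7 CPM with a median of 35.9. The highest value was in an OSM mouse and the lowest in a PBS mouse, but the ranges overlapped over most of their length. The log2 fold change was 0.19 ± 0.29 (SE, 95% interval -0.45 to 0.82; edgeR, adjusted p = 1.0). OSM mouse 5, the highest in Igf1r, also had the highest rod marker sum of 5625 CPM, and without this mouse the log2 fold change was -0.063. The part of rod RNA in the level of Igf1r was not tested.

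Insr (ENSMUSG00000005534, chr8:3172061-3329647, minus strand) encodes the insulin receptor, which also forms hybrids with the IGF1 receptor. Its level was 127, 130, 222, 129 and 160 CPM in OSM mice 1, 2, 5, 6 and 9, and 117 to 177 CPM in PBS mice with a median of 155. OSM mouse 5 again stood above all others, and 3 OSM mice lay close together near the lower end of the PBS range. The log2 fold change was -0.0079 ± 0.15 (SE, 95% interval -0.33 to 0.32; edgeR, adjusted p = 1.0), and the interval corresponds to 0.793-fold to 1.25-fold. Per length, Insr exceeded Igf1r in 11 of 11 mice, by a ratio of 3.51 to 9.33. The mean log2 ratio of Insr over Igf1r was 2.41 ± 0.46 (SD, n = 5) in OSM mice and 2.66 ± 0.427 (SD, n = 6) in PBS mice, a difference smaller than either SD.

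Igf2r (ENSMUSG00000023830, chr17:12901293-12988614, minus strand) encodes the mannose 6-phosphate and IGF2 receptor. It had 68.3, 80.6, 50.4, 52.2 and 56.8 CPM in OSM mice 1, 2, 5, 6 and 9. The PBS mice ranged from 34.1 to 77.6 CPM with a median of 58.7. Taken litter by litter, the mice of both treatments separated in opposite directions: in litter 1 both OSM mice lay above both PBS mice, with a difference of 0.70 in mean log2 CPM, and in litter 2 both lay below them, with a difference of -0.24. In litter 3 the single OSM mouse lay between its PBS littermates. Such a pattern was not particular to Igf2r. Insr had OSM mice below PBS mice in litter 1 and above them in litter 3. Igfbp2 had them below in litter 2 and above in litter 3. How many of all genes separate in this way was not counted, and with so few mice per litter such separations are frequent without any effect of treatment. No test was run within single litters, which hold 2 mice of a treatment at most, and the interaction of litter and treatment was not called for Igf2r (edgeR, adjusted p = 0.801). Over all mice the log2 fold change was 0.12 ± 0.23 (SE, 95% interval -0.38 to 0.62; edgeR, adjusted p = 1.0), and without litter 1 it was -0.19.

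Both substrate genes had low counts, and Irs1 was at the lower limit of detection. Irs1 (ENSMUSG00000055980, chr1:82210822-82269338, minus strand) had no reads in 8 of 11 mice and 7, 5 and 38 reads in PBS mice 3 and 11 and OSM mouse 9, and it did not pass the filter on low counts. Irs2 (ENSMUSG00000038894, chr8:11034681-11059499, minus strand) had 18, 59, 98, 33 and 0 reads in OSM mice 1, 2, 5, 6 and 9, and 9 to 207 reads in PBS mice. On the CPM scale this was 0 to 3.33 in OSM mice and 0.282 to 5.94 in PBS mice, with medians of 1.15 and 1.65. The medians differed by less than the spread of either group. The log2 fold change of -1.56 ± 1.45 (SE; edgeR, adjusted p = 1.0) had a 95% interval from -4.76 to 1.65, which leaves room for a large decrease as well as a rise. For 2 of the 9 members tested, Irs2 and Igf1r, the difference had the same sign in all 3 litters. This was near the share over all genes tested, where it held for 3927 (23.0%). The difference of Irs2 was -0.26, -0.40 and -4.71 in litters 1, 2 and 3, the last set by the OSM mouse without reads. For Igf1r the differences were 0.086, 0.34 and 0.088.

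The 3 binding protein genes with high levels differed in how much they varied between mice. Igfbp7 (ENSMUSG00000036256, chr5:77493130-77555931, minus strand) encodes a secreted matrix protein with low affinity for IGFs that is known as a marker of tumor and angiogenic endothelium. It had 4818, 4852, 5106, 4726 and 5221 CPM in OSM mice 1, 2, 5, 6 and 9, and 4625 to 5757 CPM in PBS mice with a median of 4974. The groups lay on top of each other, and the log2 fold change was -0.014 ± 0.059 (SE, edgeR, adjusted p = 1.0) with a 95% interval of 0.906-fold to 1.08-fold. Its coefficient of variation over all mice was 6.36%, and only 0.656% of the 2134 genes with a mean of at least 100 CPM had a lower one (median 16.6%). Igfbp7 had a mean of 5000 CPM, and this comparison was not matched for level. This small spread stood beside mural marker sums that varied from 430.5 to 2286 CPM in the same mice. The part of mural cells in the level of Igfbp7 was not tested. Igfbp7 shares 747 exonic bases (13.7% of its exons) with Polr2b on the opposite strand, which had 135 ± 8.48 CPM (SD, n = 11). Reads on such bases cannot be told apart without strand, and their effect on either level was not tested.

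Igfbp4 (ENSMUSG00000017493, chr11:98932064-98945218, plus strand) encodes a binding protein that inhibits IGF action until it is cleaved by pappalysin. Its level was 651, 615, 642, 511 and 816 CPM in OSM mice 1, 2, 5, 6 and 9, and 515 to 721 CPM in PBS mice with a median of 598. OSM mouse 9 had the highest and OSM mouse 6 the lowest value of all mice, so the PBS range lay inside the OSM range. The log2 fold change was 0.12 ± 0.11 (SE, 95% interval -0.11 to 0.36; edgeR, adjusted p = 1.0), which corresponds to 0.925-fold to 1.28-fold.

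The 250 bases before the annotated start are shown for Igfbp7 and Igfbp4, the 2 highest members whose starts in GENCODE and RefSeq lie within 22 bases of each other. The sequences were read from GRCm39 at chr5:77555915-77556164 (minus strand) and chr11:98931814-98932063 (plus strand) and are written 5′ to 3′ on the strand of the gene. Capitals mark matches on either strand to the motif GGGCGG (core of the GC box), to the motif ACGTG (core bound by hypoxia-inducible factors), to the TATA box motif TATAAA or to the motif of the CCAAT box.
Igfbp7: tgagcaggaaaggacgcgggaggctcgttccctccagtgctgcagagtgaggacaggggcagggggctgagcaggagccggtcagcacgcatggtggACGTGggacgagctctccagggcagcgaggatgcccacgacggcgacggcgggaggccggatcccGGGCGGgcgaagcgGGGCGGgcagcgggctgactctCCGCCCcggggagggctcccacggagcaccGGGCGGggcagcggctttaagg
Igfbp4: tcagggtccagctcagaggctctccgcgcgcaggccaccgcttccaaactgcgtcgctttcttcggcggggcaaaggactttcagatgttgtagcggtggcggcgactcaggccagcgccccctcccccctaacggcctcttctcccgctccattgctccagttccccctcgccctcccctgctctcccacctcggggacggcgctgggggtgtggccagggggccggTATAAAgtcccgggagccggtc

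Igfbp7 had 4 matches to GGGCGG and 1 match to ACGTG, and no TATAAA. Igfbp4 had TATAAA near the start and no GGGCGG. Both windows were richer in G and C (73.2% and 68.4%) than the median of 53.2% over the same window of 21769 protein-coding genes. Of these genes, 36.3% held GGGCGG, 17% ACGTG, 11.9% TATAAA and 36.5% CCAAT. Among the 10 members, GGGCGG was found in 6, ACGTG in 4, CCAAT in 2 and TATAAA in 1. The palindrome TTCNNNGAA, to which STAT proteins bind, was in 7.70% of all windows and the FoxO motif GTAAACA in 2.72%, and 0 of the 10 members held either. A match describes the letters only, and none of these counts bears on binding.

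Igfbp3 (ENSMUSG00000020427, chr11:7156086-7164179, minus strand) encodes the main IGF carrier of the circulation, which is also made by endothelium. It had 1371, 1261, 1126, 790 and 738 CPM in OSM mice 1, 2, 5, 6 and 9, and 635 to 1786 CPM in PBS mice with a median of 995. The groups overlapped fully, with a log2 fold change of -0.046 ± 0.16 (SE, 95% interval -0.41 to 0.32; edgeR, adjusted p = 1.0). Its coefficient of variation of 32.2% was higher than that of 96.7% of the genes with at least 100 CPM. Much of this spread lay between litters. The mean was 1408 ± 260 CPM (SD, n = 4) in litter 1, 897 ± 225 CPM (SD, n = 4) in litter 2 and 811 ± 125 CPM (SD, n = 3) in litter 3. All 4 mice of litter 1, with 1215 CPM or more, lay above all 7 mice of the other litters, with 1126 CPM or less. The share of all genes that separate in this way between litters was not counted.

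In the test across litters, Igfbp3 had the lowest p of the members (edgeR, F = 9.70) but was not called over all genes tested (edgeR, adjusted p = 0.197). In this test 3 genes were called (0.0176%) and 1758 had an unadjusted p under 0.05 (10.3%). The call depended on the tool and the filter, since the adjusted p was 0.011 with DESeq2, which called 995 genes (3.44%), and 2.81e-09 with edgeR without a filter on low counts, which called 625 (2.16%). It ranged from 0.118 to 0.493 when single mice were left out and was highest without PBS mouse 4. The summed level of 8 tip cell genes, all tested and with Apln as the highest by CPM, was also highest on average in litter 1, with 1995 CPM (range 1606 to 2642) beside 1493 CPM in litter 2 (range 1398 to 1616) and 1365 CPM in litter 3 (range 1272 to 1521), and here litters 1 and 2 overlapped. The endothelial sum was on average 22160 CPM in litter 1 and 19160 and 19560 CPM in litters 2 and 3, with litters 1 and 2 again overlapping. PBS mouse 4 was the highest mouse both in Igfbp3 (1786 CPM) and in the tip cell sum (2642 CPM). Within litter 1, however, both OSM mice had lower tip cell sums (1606 and 1635 CPM) than PBS mouse 3 (2098 CPM) and higher Igfbp3 (1371 and 1261 against 1215 CPM). The part of tip cells or of the endothelial share in the level of Igfbp3 was not tested, and litter and OIR run cannot be told apart. Igfbp3 was the only one of the 9 members tested with an unadjusted p under 0.05 across litters, a share near the 10.3% of all genes tested.

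**Figure D3:**
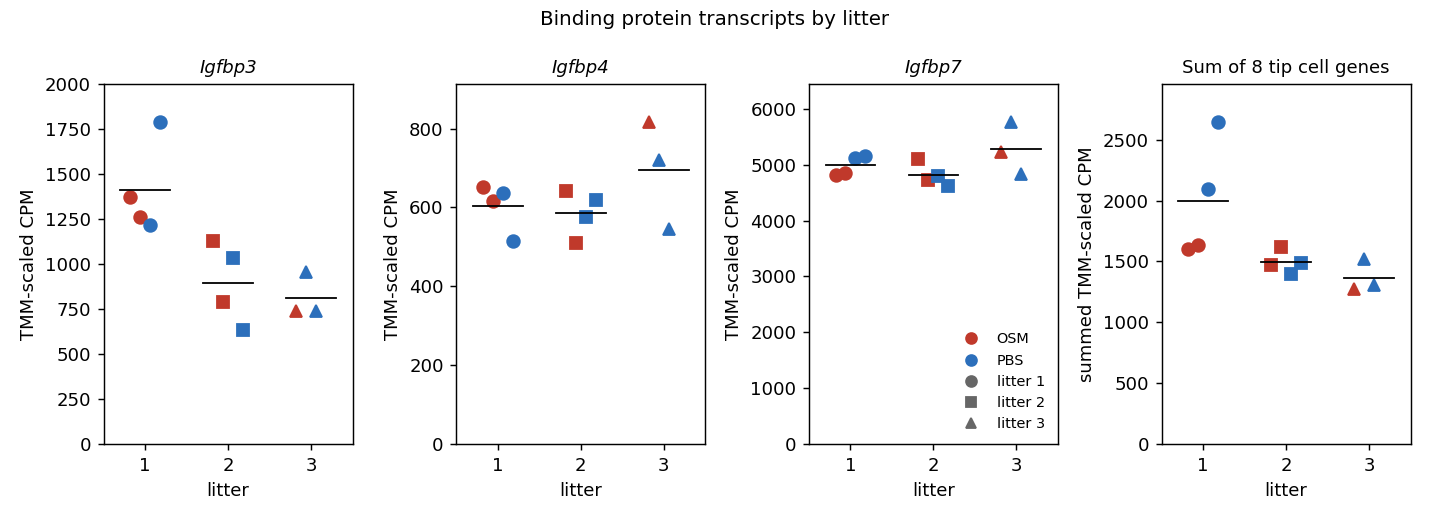
TMM-scaled CPM of Igfbp3, Igfbp4 and Igfbp7 and the summed CPM of 8 tip cell genes in each mouse, by litter, with OSM mice in red, PBS mice in blue and lines at the litter means. The 4 mice of litter 1 lie at or above 1215 CPM in Igfbp3 and all others at or below 1126 CPM, while the litters overlap for Igfbp4 and Igfbp7. The share of all genes that separate litter 1 from the others was not counted.

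In relation to one another, Igfbp7 made up 67.8 ± 4.28% (SD, n = 11) of the summed RPKM of the 5 binding protein genes, Igfbp3 21.6 ± 5.35% and Igfbp4 10.4 ± 1.52%. The share of Igfbp3 ranged from 15.3% to 32.0% between mice, and that of Igfbp7 from 60.4% to 72.7%. Igfbp2 and Igfbp5 each gave less than 1% in every mouse.

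Igfbp5 and Igfbp2 were low and uneven. Igfbp5 (ENSMUSG00000026185, chr1:72897091-72914043, minus strand), which encodes a binding protein that adheres to extracellular matrix, had 19.9, 5.66, 5.07, 6.49 and 6.42 CPM in OSM mice 1, 2, 5, 6 and 9. In PBS mice it ranged from 0 to 31.7 CPM with a median of 8.01. The log2 fold change was -0.21 ± 1.14 (SE, 95% interval -2.72 to 2.31; edgeR, adjusted p = 1.0). The PBS mouse with the highest Igfbp5, mouse 11, also had the highest mural marker sum (2286 CPM), and the only mouse without reads, PBS mouse 8, had the lowest mural sum (430.5 CPM) and the lowest sum of 6 fibroblast genes (53.7 CPM). OSM mouse 1, with the second highest Igfbp5, had a mural sum of only 631 CPM. All 13 mural genes had reads, with Vtn the highest of them per length, and the part of mural cells in the level of Igfbp5 was not tested.

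Igfbp2 (ENSMUSG00000039323, chr1:72863606-72891634, plus strand), which encodes a binding protein abundant in the nervous system, had 45, 0, 35, 0 and 218 reads in OSM mice 1, 2, 5, 6 and 9. In PBS mice it had 0 to 64 reads, which was 0 to 1.97 CPM with a median of 1.19. Reads of Igfbp2 were either absent, in 3 mice, or at least 35, so that no mouse had a count between these values. The lowest count above 0 was 9 for Irs2 and 105 for Igfbp5. The highest Igfbp2 value was in OSM mouse 9, whose library was also the deepest with 56033479 reads, but with 3.90 CPM it was also the highest after scaling for depth. The log2 fold change of -0.24 ± 1.87 (SE; edgeR, adjusted p = 1.0) had a 95% interval from -4.36 to 3.89 and carries no information on direction.

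Whether the effect of OSM differed between litters was tested by the interaction of litter and treatment. It was called for 0 of 9 members and for 0 of 17050 genes with edgeR (0.0%), and 1095 genes had an unadjusted p under 0.05 (6.42%), none of them a member. DESeq2 called 673 genes (2.33%) and edgeR without a filter 305 (1.05%), again with 0 members. Among the members, Irs2 had the lowest p in this test (edgeR, adjusted p = 0.791).

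Members were also compared with each other across the 11 mice, after litter means of log2 CPM had been subtracted, in 36 pairs of the 9 members tested. The exact permutation test within litters (3456 orders, two-sided) gave an unadjusted p under 0.05 for Pearson's r in 4 pairs and an adjusted p under 0.05 in 0 pairs. Igf1r and Insr had r = 0.767 (exact permutation p = 0.0362, adjusted p = 0.326) and Spearman's rho = 0.782 (exact p = 0.0214, adjusted p = 0.385). For this pair r was 0.273 without the 2 mice farthest from the median of Igf1r, so that the relation rests on those mice. The value of r was 0.905 when the mean of each treatment within each litter was subtracted instead. That subtraction leaves no deviation for the single OSM mouse of litter 3. Igf2r and Igfbp7 ran in opposite directions, with r = -0.683 (exact permutation p = 0.0171, adjusted p = 0.323), rho = -0.727 (exact p = 0.0214, adjusted p = 0.385) and r = -0.851 without 2 mice. Igfbp3 and Igfbp7 had r = 0.656 (exact permutation p = 0.0258, adjusted p = 0.323), rho = 0.591 (exact p = 0.0619, adjusted p = 0.550) and r = 0.638 without 2 mice. Insr and Igfbp2 had r = 0.751 (exact permutation p = 0.0269, adjusted p = 0.323) and rho = 0.636 (exact p = 0.0764, adjusted p = 0.550), although Igfbp2 had no reads in 3 of these mice, and r was 0.783 without 2 mice. None of these relations held after correction, and the values of a pair share library and depth.

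The remaining genes of the pathway were counted in 8 lists with 82 genes, of which 72 had enough reads for testing. After OSM 0 of these 72 were called and 0 had an unadjusted p under 0.05 (edgeR, against 846 of all genes, 4.96%). Of the 72, 38 had a positive and 34 a negative log2 fold change, with a median of 0.015 beside -0.014 over all genes tested. Of the 4 ligand genes only Igf1 was tested. It had reads in 10 of 11 mice, at most 164, and a mean level of 0.152 ± 0.130 RPKM (SD, n = 11). Igf2 had at most 10 reads in 4 mice, and the insulin genes Ins1 and Ins2 had 0 reads in every library.

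Several downstream genes exceeded the receptors per length, while others, such as Deptor and Bcl6 with reads in 8 of 11 mice, were low. Akt1, a kinase that receives the signal from PI3K, had 61.9 ± 6.91 RPKM (SD, n = 11) and a log2 fold change of -0.052 ± 0.093 (SE, 95% interval -0.26 to 0.15; edgeR, adjusted p = 1.0). In the same list of 16 PI3K and Akt genes, 8 had positive and 8 negative values. The lowest p of the list was for Pik3r1, which encodes the regulatory p85 subunit of PI3K, with 29.4 ± 15.2 CPM (SD, n = 5) after OSM and 16.1 ± 8.75 CPM (SD, n = 6) after PBS (log2 fold change 1.07 ± 0.49, SE; edgeR, adjusted p = 0.955). Its SD in the OSM mice was larger than the difference of the means.

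Among 9 inhibitors of the receptors, 5 had positive and 4 negative values. Socs3, which encodes a feedback inhibitor induced by STAT3, had 25.7 ± 15.1 CPM after OSM (SD, n = 5) and 34.5 ± 20.6 CPM after PBS (SD, n = 6), with a log2 fold change of -0.46 ± 0.22 (SE; edgeR, adjusted p = 0.955). It differed more between litters, without being called (edgeR, adjusted p = 0.0743). Grb10, the highest inhibitor per length with 16.3 ± 2.80 RPKM (SD, n = 11), had a log2 fold change of -0.16 ± 0.15 (SE).

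Of 14 genes of the mTOR complexes and their targets, 6 had positive and 8 negative values. Mtor itself had 37.7 ± 18.4 CPM after OSM (SD, n = 5) and 50.7 ± 12.9 CPM after PBS (SD, n = 6; edgeR, adjusted p = 0.955), and Rps6, a ribosomal protein that is phosphorylated downstream of mTOR, had a log2 fold change of 0.085 ± 0.079 (SE). In the list of adaptors, 8 of 10 genes were tested, with 4 positive and 4 negative values. Sh2b1, an adaptor that enhances insulin receptor signaling, had the lowest p (log2 fold change 0.45 ± 0.22, SE; edgeR, adjusted p = 0.955), and Crk the highest level with 37.1 ± 6.25 RPKM (SD, n = 11) and a log2 fold change of 0.073 ± 0.14 (SE).

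Of 13 genes for FoxO factors, which Akt keeps out of the nucleus, and their targets, 12 were tested, with 8 positive and 4 negative values. Txnip, a target that limits glucose uptake, had 61.8 ± 10.6 RPKM (SD, n = 11) and a log2 fold change of -0.14 ± 0.11 (SE). A further list of 9 genes held other binding proteins, proteases of IGF binding proteins, and Stc1 and Stc2, which are neither. Of these 9, 5 were tested, Stc1 and Stc2 among them. The protease gene Htra1 was by far the highest with 81.7 ± 14.8 RPKM (SD, n = 11) and had a log2 fold change of -0.19 ± 0.15 (SE). In contrast Pappa, which encodes the pappalysin that cleaves the product of Igfbp4, had at most 8 reads in a library and was not tested. Of the 7 partners of Igf2r in mannose 6-phosphate sorting, 5 had positive and 2 negative values, with M6pr at 74.2 ± 16.3 RPKM (SD, n = 11; log2 fold change 0.028 ± 0.13, SE) and Gnptab, needed for the tag itself, with a log2 fold change of 0.51 ± 0.41 (SE).

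**Figure D4:**
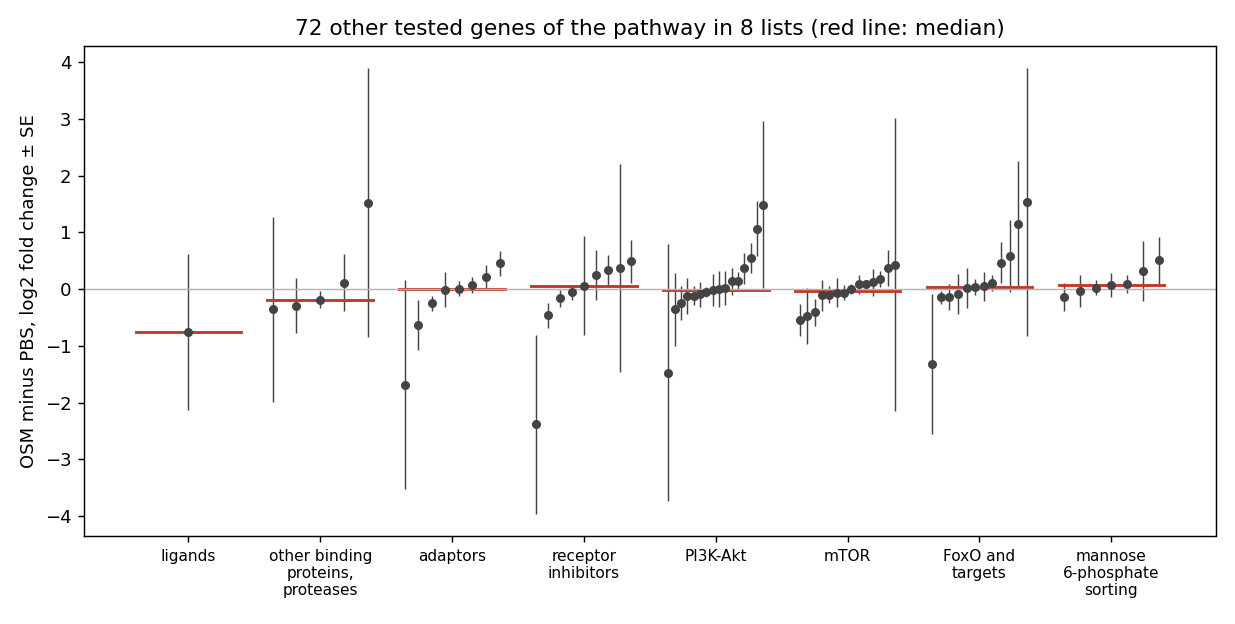
Log2 fold change (OSM minus PBS) with its SE for the 72 other pathway genes tested, sorted within 8 lists, with red lines at the list medians. The genes scatter on both sides of 0 in every list with more than 1 gene, and the values farthest from 0 have wide errors.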

How the data were processed

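Per the labels and the study's methods, the authors isolated RNA from sorted cells, made cDNA primed on poly(A) tails, amplified it and sequenced single reads without strand information or molecular identifiers. Reads were aligned to GRCm39 with STAR and assigned to GENCODE genes with featureCounts. The files deposited by the authors hold raw counts per gene for 11 mice. Gene symbols and positions came from GENCODE vM39 (54749 of 55359 identifiers matched, 610 did not). Members and lists were chosen with earlier results of these data known.

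Counts were tested in edgeR 4.0.16 (R 4.3.3) with TMM factors, filterByExpr (minimum count 10, 17050 genes kept), litter and treatment as terms, robust quasi-likelihood F tests and Benjamini-Hochberg adjustment over all genes, with a threshold of 0.05. CPM (counts per 1000000 reads) and RPKM (also per 1000 bases) were scaled by TMM, and lengths are those of all exons joined. Log2 CPM used a prior count of 2. The scripts were tested on simulated data. DESeq2 1.42.0 and the other alternatives are given in the closing section. Each sample is 1 mouse, so p-values measure the spread between mice. Named were all members, and from each list of other pathway genes those with the lowest p and the highest level per length, as none was called. Igf2, Ins1, Ins2, Pappa, Stc1, Stc2, Deptor and Bcl6 were added to these after their values were seen. Promoter windows were read from GRCm39 at GENCODE canonical starts, and their starts were compared with RefSeq promoters of GRCm38.p6. The headers of 2 count files carry a mouse number other than their label, with the same treatment, and the labels were used. The in vitro samples of the study were not analysed here. Between-gene levels rest on annotated exons, and reads on exons shared by genes on opposite strands are not assigned under featureCounts' standard settings, so levels of Igfbp7, Igf1r and Irs2 may be understated.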

Additional observations from a re-analysis of the deposited data

Results flagged for a closer look

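In 5 of 68 sets of values of 1 treatment group, 1 mouse lay farther from the others than Dixon's 95% critical value. Under a normal spread chance alone marks about 1 in 20 such sets, and CPM values of low genes, some of them at 0, need not follow such a spread. Igfbp5 was 19.9 CPM in OSM mouse 1, and the next OSM mouse had 6.49 CPM. Irs1 was 0.679 CPM in OSM mouse 9, from 38 reads, and 0 CPM in the other OSM mice, so that any number of reads in that mouse would have been flagged. Igf1, the ligand gene, was 5.03 CPM in PBS mouse 7, and the next PBS mouse had 1.78 CPM. The sum of the rod markers was 1550 CPM in PBS mouse 10 beside 808 CPM in the next PBS mouse, and the sum of leukocyte and microglia markers was 14.7 CPM in OSM mouse 5 beside 1.15 CPM in the next OSM mouse.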

How the results depend on the processing

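No paired analysis was possible because the mouse numbers are not shared between treatments, and litter was a term instead. The alternatives were the size factors of DESeq2 in edgeR, no filter, no robust estimation, thinned libraries, DESeq2, no litter term, and leaving out each mouse or each litter. No member was called between OSM and PBS under any of them, and Irs2 and Igfbp4 kept the sign of their difference under all alternatives. Without a filter on low counts 65 genes were called between OSM and PBS, 625 between litters and 305 for the interaction, and with DESeq2 168, 995 and 673. Thinning all libraries to the smallest gave 15 calls between litters. Igfbp3 passed the threshold between litters without a filter (F = 26.1) and with DESeq2 (likelihood ratio 15.4). Leaving out single mice gave 0 calls between OSM and PBS, 0 to 44 between litters (44 without PBS mouse 8) and 0 to 1 for the interaction, and log2 fold changes of -0.063 to 0.355 for Igf1r, -0.061 to 0.225 for Igf2r, -0.139 to 0.084 for Insr, -1.32 to 0.269 for Igfbp2, -0.17 to 0.063 for Igfbp3, -0.716 to 1.15 for Igfbp5, -0.041 to 0.013 for Igfbp7, -2.143 to -0.84 for Irs2 and 0.038 to 0.192 for Igfbp4. For Irs2 and Igfbp4 the value nearest 0 was the one without OSM mouse 9. Signs also reversed without litter 1 for Igf2r (-0.194), Insr (0.131), Igfbp2 (0.492), Igfbp3 (0.040) and Igfbp7 (0.029), without litter 2 for Igfbp2 (0.564) and Igfbp5 (0.026), without litter 3 for Igfbp3 (0.001) and Igfbp5 (0.180), and without the litter term for Insr (0.015) and Igfbp2 (0.073). With the length of the longest transcript, levels were 3.11 RPKM for Igf1r, 16.3 for Insr and 162 for Igfbp4. The causes of these changes were not tested. Irs1 had too few reads for testing, and the part of depth in this was not tested. The intervals of Irs2, Igfbp2 and Igfbp5 were wide, and thinning left Irs2 at -1.565.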
